A study of Mus musculus with 96 samples.

Results

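Stress was compared with no stress in the nucleus accumbens (NAc) of XXSry mice, over all measured genes. The XXSry NAc libraries were chosen by their region and genotype labels, which gave 12 of the 96 libraries of the study, 6 from stressed and 6 from control mice. XXSry mice have XX sex chromosomes and carry the testis-determining gene Sry as a transgene, so they are gonadal males without a Y chromosome. The stressed mice went through subchronic variable stress, given as 3 sessions of restraint of 1 hour each on alternating days within 6 days. The controls of the same genotype were left unstressed. All 12 mice therefore share the XX complement and the transgene, and nothing in this comparison separates the transgene from the testes it forms. The study used 4 genotypes of this mouse model, and also the prefrontal cortex (PFC), where libraries of the 2 regions with the same number in their labels are taken to come from 1 animal. Other groups used here are the stressed and control XX mice (6 and 5 NAc libraries), which have the same chromosomes and ovaries, and the stressed and control XY-Sry mice (6 and 6), which have the transgene, testes and a Y chromosome without Sry. The labels state neither the age and strain of the mice nor the time from the last session to dissection.

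The NAc is the ventral part of the striatum and joins dopamine signals with input from cortex, amygdala and hippocampus. Most of its neurons are medium spiny neurons, which release GABA and divide into cells with the dopamine receptor D1 and cells with D2. Restraint activates the adrenal axis, and the glucocorticoids it releases act through the receptors Nr3c1 and Nr3c2, which bind DNA and switch on targets such as Fkbp5 and Sgk1. Repeated stress in rodents is widely used to study changes of reward and avoidance behaviour that depend on this region.

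Total counts per library were 45.9 to 108.6 M in the 6 stressed mice (median 72.3 M) and 66.2 to 90.4 M in the 6 controls (median 76.9 M). Xist, the RNA that silences one X chromosome, had 1720 to 2170 CPM (counts per 1 M mapped counts) in the 12 libraries, and the 5 measured Y-linked genes had at most 0.21 CPM, as the genotype label requires. The tissue label was checked with striatal genes. Drd1 had a median of 264 CPM over the 12 NAc libraries against 9.3 CPM in the PFC of the same mice, and Drd2 had 87.7 against 0.628 CPM. Slc17a7, the vesicular glutamate transporter of cortical excitatory neurons, had a median of 280 CPM in the NAc against 1460 CPM in the PFC, but its NAc values ran from 22.6 to 644 CPM. The amount of RNA of cortical type thus differed widely between these punches, in both groups. In bulk tissue, fewer cells of a type and less RNA per cell cannot be told apart. Stressed library 28 had the largest average distance to the other 11 libraries (a root mean square difference of 0.371 in log2 CPM), followed by control library 27 (0.329) and stressed library 12 (0.328), and the lowest was 0.263 for control library 39.

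No gene passed the test between stressed and control XXSry mice. Of 19684 genes, edgeR called 0 (0%) at an adjusted p under 0.05, DESeq2 called 0 and limma-voom called 0. The smallest edgeR p was 0.000339, and adjusted over all genes it was 1. At an unadjusted p under 0.05 there were 491 genes (2.49%), 293 higher and 198 lower in stressed mice, by DESeq2 543 and by limma-voom 536.

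The measurement was precise for most genes. Among 14840 genes with a mean level of at least 0 log2 CPM, the standard error of the log2 fold change had a median of 0.0989. For 13181 of them (88.8%) the 95% confidence interval lay within a 1.5-fold change in either direction, and for 14502 (97.7%) within a 2-fold change. Precision followed the level of a gene. The median standard error was 0.479 for genes under 0 log2 CPM, 0.205 between 0 and 2, 0.118 between 2 and 4, 0.0808 between 4 and 6, and 0.0727 at 6 or more. The spread among mice was alike in both groups, with a median SD of 0.152 log2 CPM in stressed and 0.145 in control mice.

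**Figure D1:**
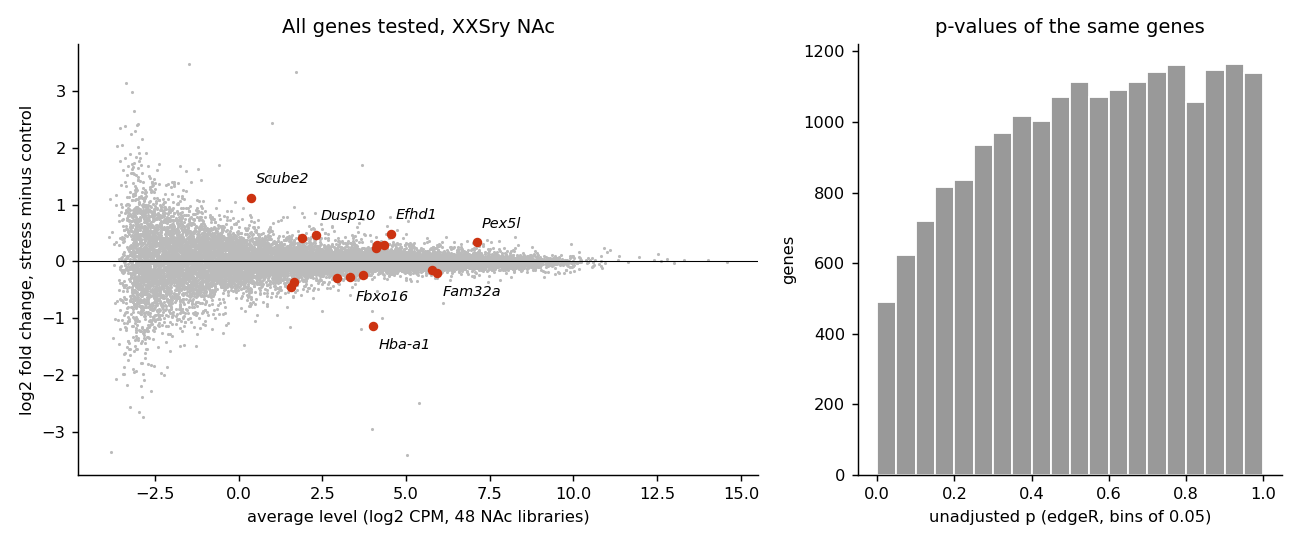
The left panel plots each of the 19684 genes by its average level over the 48 NAc libraries (log2 CPM) and its log2 fold change in XXSry mice, stress minus control, with the 16 named genes of smallest p in red and some of them labelled. The right panel counts genes by unadjusted p in steps of 0.05, and the lowest step, with 491 genes, is the smallest.

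Batch and stress were not fully crossed in these mice. Of the 6 stressed mice 5 came from cohort 1 and 1 from cohort 3, and of the 6 controls 4 came from cohort 1 and 2 from cohort 2. Within cohort 1 alone, with 5 stressed and 4 control mice, edgeR called 0 of 19810 genes and 585 had an unadjusted p under 0.05 (2.95%). Without stressed libraries 12 and 28, which were chosen for removal after the distances were seen, 0 of 19720 genes were called and 778 (3.95%) had an unadjusted p under 0.05, more than 1.5 times the 491 of all 12 libraries. Control library 27, with a distance (0.329) just above that of library 12 (0.328), was kept. This setting therefore trims the stressed group only.

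The values of the 6 stressed and the 6 control mice did not overlap for 18 genes (0.0914% of those tested), 7 higher and 11 lower in stressed mice. Of these, 12 were annotated as protein-coding. Fam32a is described below, and some others, chosen after their values were seen, were Rbm3, Klf4 and Mras. Rbm3, an RNA-binding protein induced by cold, had 45, 50.3 and 57.9 CPM as lowest, median and highest value in stressed mice and 32.5, 41.5 and 42 CPM in controls (log2 fold change 0.33, SE 0.120). Rbm3os overlaps it from the other strand, and without strand information its reads may be mixed in. Klf4, a zinc-finger transcription factor, had 1.74, 2.36 and 2.55 CPM in stressed mice and 2.68, 2.94 and 3.84 CPM in controls (-0.43, SE 0.167). Mras, a small GTPase of the Ras family, had 148, 151.5 and 156 CPM in stressed mice and 157, 159 and 173 CPM in controls (-0.09, SE 0.0498). Each of these 3 had an edgeR adjusted p of 1.

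Among named genes with a level of at least 0 log2 CPM, the 8 of smallest p with a log2 fold change above 0 were picked by their p-values, so they are given as values. None passed the test (edgeR adjusted p = 1 for each). Scube2 (chromosome 7, 109798676 to 109865679 in GRCm38), a secreted protein that helps cells release Hedgehog ligands, had 1.03, 1.19 and 2.07 CPM as lowest, median and highest value in stressed mice, against 0.291, 0.573 and 1.21 CPM in controls. Control library 11, at 1.21 CPM, was the 1 control inside the stressed range. On the log2 scale stressed mice differed by 1.12 (SE 0.289), and by 1.13 within cohort 1. Dusp10 (chromosome 1, 184013302 to 184075636), a phosphatase that switches off the stress-activated kinases p38 and JNK, had 4.04, 5.97 and 6.99 CPM in stressed and 2.8, 4.44 and 5.75 CPM in control mice. Its groups overlapped (0.47, SE 0.136). Efhd1, a calcium-binding protein of mitochondria, had 20, 27 and 34.4 CPM in stressed and 13.6, 19.8 and 26.9 CPM in control mice (0.49, SE 0.152). Mcur1, a regulator of calcium uptake by mitochondria, had 16.8, 17.8 and 18.6 CPM in stressed and 13.7, 15.6 and 16.9 CPM in control mice, so that the ranges barely overlapped (0.24, SE 0.0794). Nmrk1, a kinase that makes NAD from nicotinamide riboside, had 3.09, 4.31 and 4.73 CPM in stressed and 2.59, 3.24 and 3.42 CPM in control mice (0.42, SE 0.129).

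The other genes of this direction overlapped between the groups as well. Pex5l, an auxiliary subunit of the HCN channels that pace neuronal firing, had 126, 152 and 172 CPM in stressed mice and 86.5, 121 and 154 CPM in controls (0.34, SE 0.115), and it overlaps the predicted gene Gm37459 on the opposite strand. Sh3d19, an adaptor with SH3 domains, had 16.5, 19.3 and 22.8 against 13.2, 16.2 and 19.6 CPM (0.30, SE 0.101). Olig2, the transcription factor that specifies the oligodendrocyte lineage, had 18.3, 22.6 and 26.9 CPM in stressed and 15.8, 19 and 20.7 CPM in control mice (0.29, SE 0.0982). For Olig2, 4 of 6 stressed libraries were above the highest control, and library 28 was lowest among the stressed.

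Of the 8 genes of smallest p with a log2 fold change below 0, Fam32a (chromosome 8, 72219730 to 72224418) was the one whose groups stood apart. It encodes a small nuclear protein that is known from human cells as a factor of the spliceosome. Fam32a had 52.8, 55.5 and 60.3 CPM in stressed mice and 61.1, 63.1 and 66.2 CPM in controls, so that every stressed value was below every control value. The value was -0.20 (SE 0.0583) on the log2 scale and -0.18 within cohort 1, with an edgeR adjusted p of 1. Fbxo16 (chromosome 14, 65266618 to 65323973), an F-box protein that selects targets of ubiquitin ligases, had 8.33, 9.32 and 9.91 CPM in stressed and 9.03, 11.2 and 12.2 CPM in control mice. Its value of -0.28 (SE 0.0762) came with the smallest p in this direction, and its groups overlapped. Ttc30b, a subunit of the transport complex of cilia, had 11.1, 11.9 and 12.7 CPM in stressed and 12.5, 13.6 and 15.4 CPM in control mice (-0.24, SE 0.0855). Maneal, a protein of the endomannosidase family, had 49.5, 52.1 and 55 against 52.6, 57.5 and 64.7 CPM (-0.16, SE 0.0562), and it overlaps Yrdc on the opposite strand. BC025920 had 6.55, 6.81 and 8.23 against 7.02, 8.88 and 9.48 CPM (-0.29, SE 0.0939). Stressed library 52 held the 8.23 CPM, and the other stressed libraries were at 7 CPM or below.

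The remaining 3 genes have near-identical copies, so their reads may be shared and their values are uncertain. Hba-a1, an alpha-globin of red blood cells, had 7.97, 8.54 and 14.5 CPM in stressed mice, the highest in library 12, and 9.95, 15.2 and 37 CPM in controls. Its log2 fold change of -1.14 (SE 0.399) was the one of largest size among the 16 genes, and it was -0.86 within cohort 1. The neighbouring alpha-globin gene Hba-a2 had 2.80, 3.57 and 5.98 CPM in stressed and 4.77, 5.17 and 6.39 CPM in control mice (-0.40, SE 0.312). Isoc2b, which has a neighbouring paralog, had 1.13, 2.52 and 3.17 against 2.97, 3.26 and 3.58 CPM (-0.45, SE 0.159). Rpl10a-ps1, a processed pseudogene of a ribosomal protein, had 2.35, 2.89 and 3.60 against 3.23, 3.53 and 4.18 CPM (-0.36, SE 0.125).

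The 16 genes showed little of these differences elsewhere. All 16 kept their direction within cohort 1, which shares 9 of the 12 libraries. In the PFC of the same mice 10 of 16 had the direction of the NAc, and the median size of their log2 fold changes was 0.0673, against 0.318 in the NAc. In the NAc of XX mice and of XY-Sry mice, which are other animals, 11 of 16 had the same direction in each, with median sizes of 0.0806 and 0.0867. Hba-a1, at -1.01 (SE 0.386) in XY-Sry mice and -0.41 (SE 0.408) in XX mice, was the one that kept a large value. A smaller size in other samples is what a choice by small p in one sample set brings with it, so nothing is read from it.

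**Figure D2:**
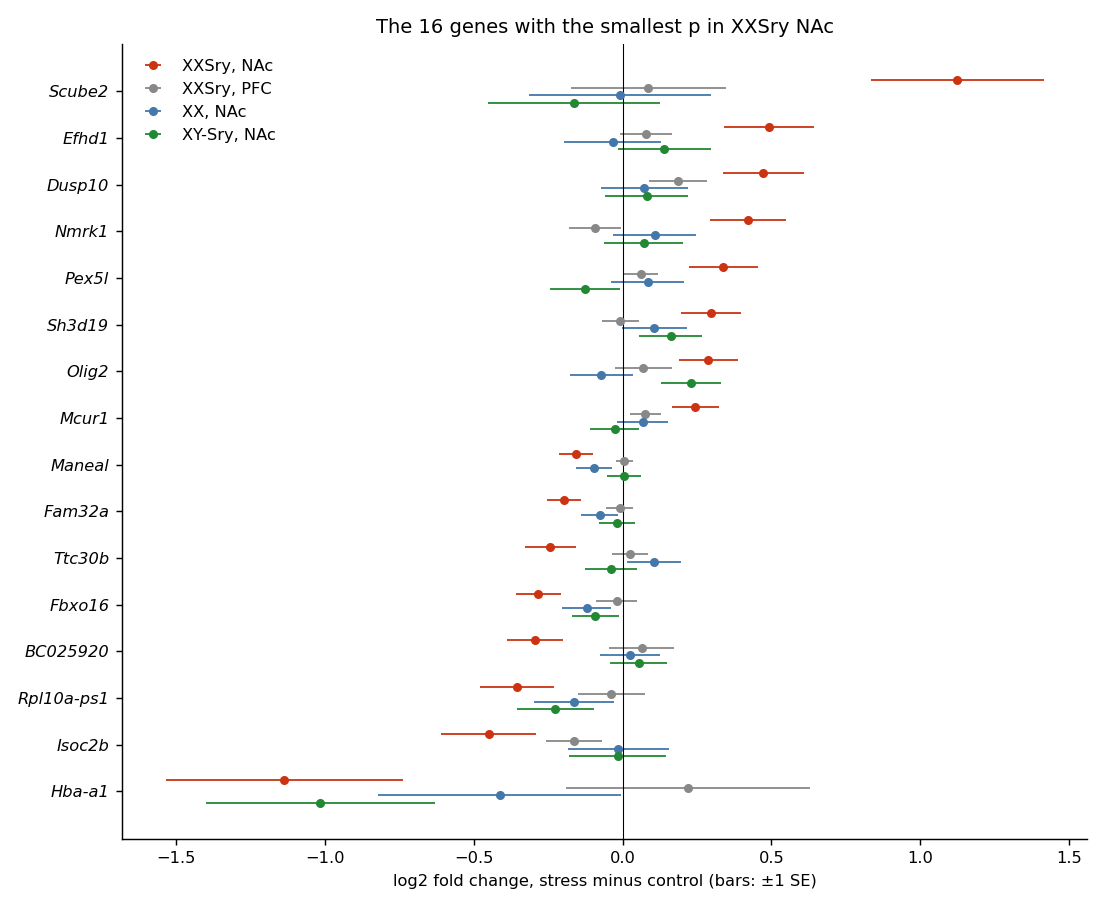
Log2 fold changes, stress minus control, with bars of 1 SE, for the 16 named genes of smallest p, in XXSry NAc (red, n = 6 and 6), XXSry PFC (grey, n = 6 and 6), XX NAc (blue, n = 6 and 5) and XY-Sry NAc (green, n = 6 and 6). The red points lie farthest from 0 because the genes were picked there, and Hba-a1 in XY-Sry mice, at -1.01, is the largest of the others.

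Across 37 gene lists with 499 distinct tested members, 0 genes were called by edgeR, and 10 (2%) had an unadjusted p under 0.05 against 2.49% of all genes. Of these 10 values 6 were above and 4 below 0. For 336 of the 499 the 95% interval lay within a 1.5-fold change. The plot of list medians gives the centre of each list described below, beside a median over all genes of 0.00311 and 51.2% of all genes above 0. Members of a list were measured in the same libraries and can move together, so counts on 1 side of 0 are not counts of independent values. Neuroblast and dividing cell markers, a list not described below, had all 10 tested members below 0 (median -0.11).

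**Figure D3:**
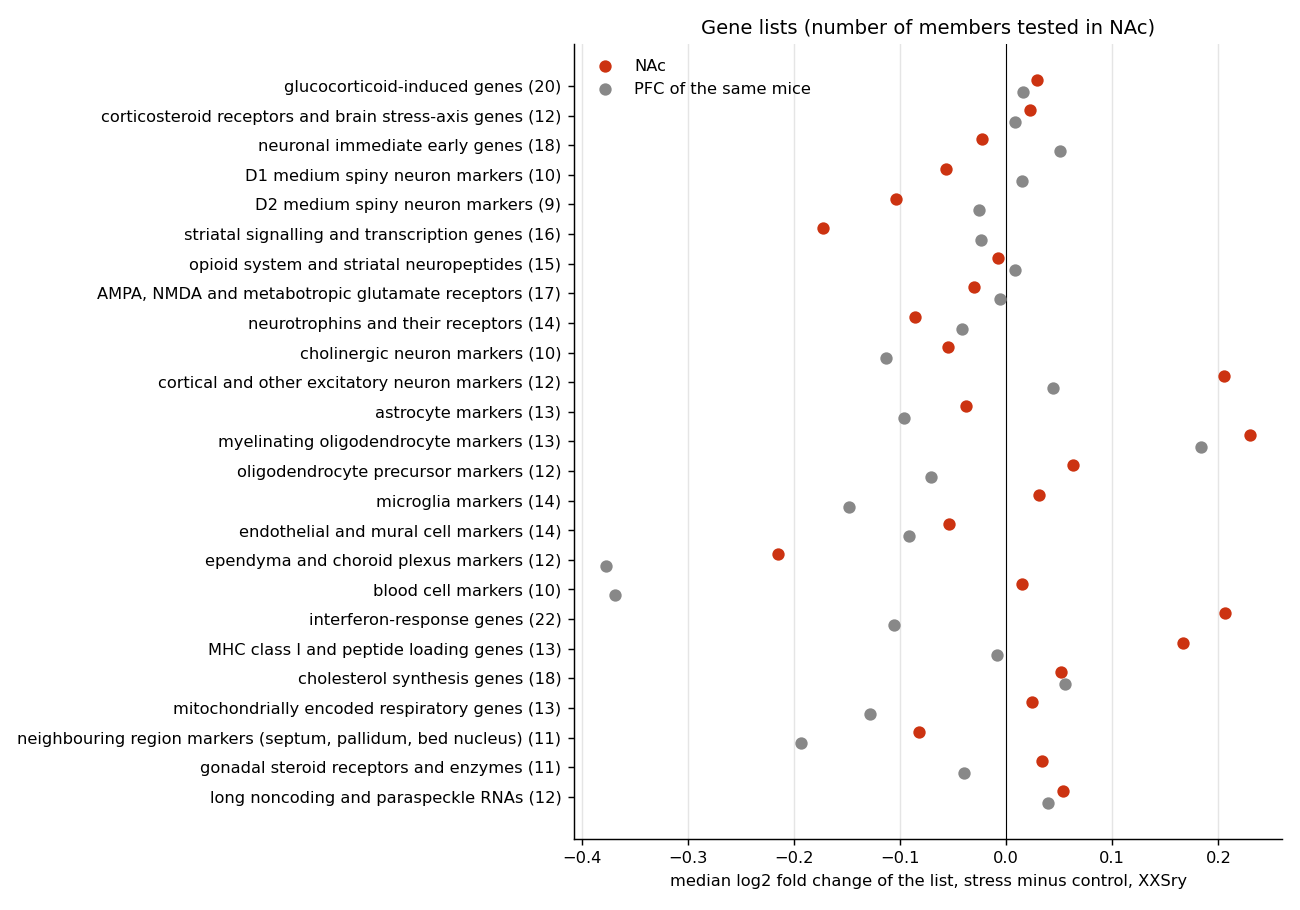
Median log2 fold change over the tested members of each described list, stress minus control in XXSry mice, in NAc (red) and in PFC (grey), with the number of members tested in the NAc. Most NAc medians lie near 0, and those farthest from it are myelin markers (0.23), ependymal and choroid plexus markers (-0.21), excitatory neuron markers and interferon-response genes (0.21 each), striatal signalling genes (-0.17) and class I antigen presentation genes (0.17).

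Genes induced by glucocorticoids did not differ detectably. Of 20 tested members 0 were called, 11 lay above 0, and the median log2 fold change was 0.03 in the NAc and 0.02 in the PFC. The 95% interval was within a 1.5-fold change for 17 of the 20. Fkbp5 (chromosome 17, 28399094 to 28517527), a chaperone partner that dampens the glucocorticoid receptor, had 27.9, 36.1 and 38.6 CPM as lowest, median and highest value in stressed mice and 32.4, 37.3 and 41 CPM in controls. The groups overlapped almost fully, and the log2 fold change was -0.06, with a 95% interval of -0.25 to 0.13. Sgk1, a kinase that raises sodium and ion channel activity, had 50.1, 59 and 81.9 CPM in stressed and 50.3, 64.1 and 75.1 CPM in control mice (0.04, interval -0.29 to 0.36). Zbtb16, a transcription factor that responds strongly to glucocorticoids in many tissues, had 7.56, 9.91 and 15.7 CPM in stressed and 5, 8.26 and 10.3 CPM in control mice. The fold change of 0.42 (log2, SE 0.256) did not pass the test, and its 95% interval of -0.10 to 0.93 is wide. Lcn2, an iron-binding protein of acute inflammation, had at most 0.569 CPM, in stressed library 4, and 0 to 0.0222 CPM in the other stressed mice, against 0 to 0.0817 CPM in controls. Its fold change is uncertain at these levels and changed sign without library 4.

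The receptors that read these hormones had closely matched levels. Nr3c1, the glucocorticoid receptor, had 121, 141 and 158 CPM in stressed and 129, 142 and 155 CPM in control mice (-0.02, interval -0.20 to 0.16). Nr3c2, the mineralocorticoid receptor, had 72, 76.9 and 89.4 against 68.5, 74.2 and 84.3 CPM (0.04, interval -0.08 to 0.17), and it overlaps Gm10649 on the opposite strand. Both intervals lie well inside a 1.5-fold change. Of the list of 12 tested receptors and stress-axis genes, 0 were called and 8 lay above 0 (median 0.02). Crhbp, which binds the stress peptide CRH outside cells, had 7.41, 12.8 and 15.2 CPM in stressed and 4.85, 9.59 and 11.7 CPM in control mice (0.46, SE 0.251, edgeR adjusted p = 1). Oxtr, the oxytocin receptor, had 6.96, 11.8 and 33.9 CPM in stressed and 6.83, 9.95 and 14.9 CPM in control mice (0.52, SE 0.312). Library 28 held the 33.9 CPM, and without libraries 12 and 28 the value for Oxtr was -0.01.

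**Figure D4:**
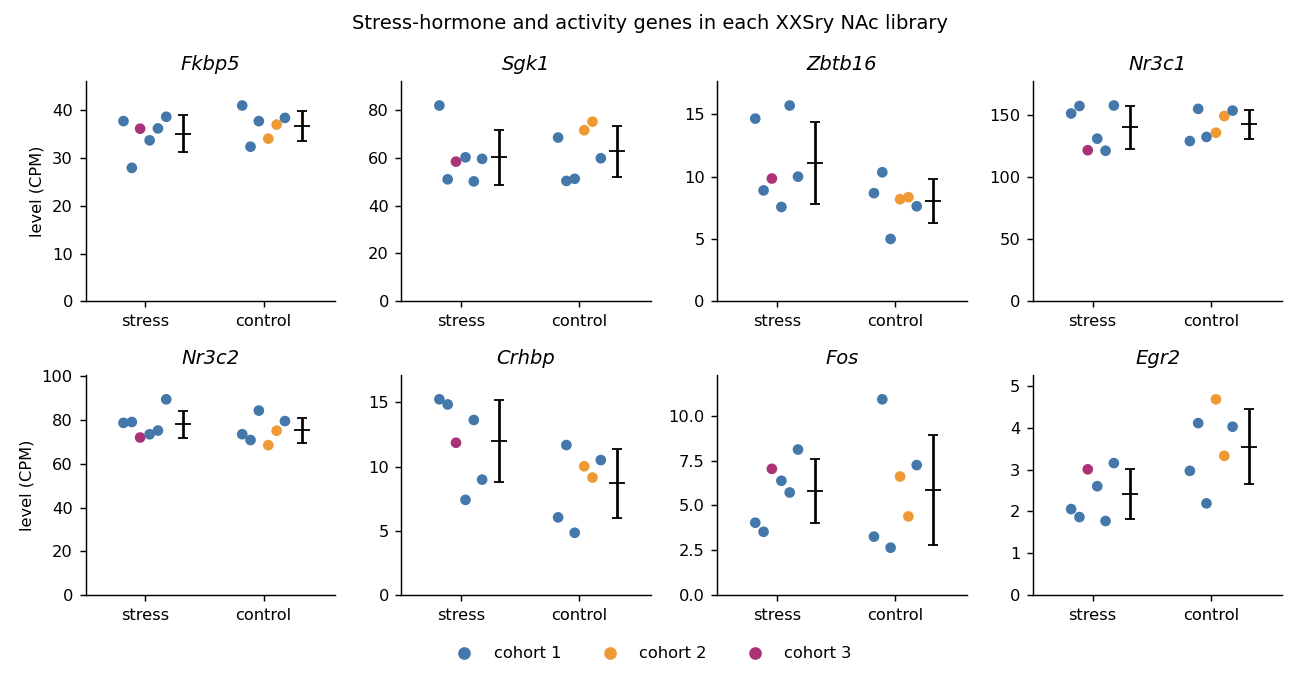
Levels in CPM of 8 genes of the hormone axis and of neuronal activity in each XXSry NAc library, stressed mice to the left of controls, coloured by cohort, with the mean and 1 SD beside the points (n = 6 each). Stressed and control points overlap for every gene shown, and the Nr3c1 means are 140 and 142 CPM.

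Immediate early genes, which neurons switch on within minutes of activity, were centred on 0. Of 18 tested members 0 were called and 8 lay above 0, with a median of -0.02 that changed sign under 6 of 22 alternatives. Fos had 3.53, 6.05 and 8.12 CPM in stressed and 2.64, 5.50 and 10.9 CPM in control mice (-0.02, interval -0.66 to 0.61). Fosb, which builds up with repeated stimulation, had 8.13, 9.05 and 11.1 against 8.81, 10.1 and 12.1 CPM (-0.06, interval -0.33 to 0.21). The interval for Fosb is within a 1.5-fold change, and that for Fos is not. Egr2, a zinc-finger factor of the same class, had 1.77, 2.33 and 3.16 CPM in stressed and 2.19, 3.68 and 4.68 CPM in control mice (-0.40, SE 0.212, edgeR adjusted p = 1). Nr4a2, an orphan nuclear receptor found in deep cortical layers and claustrum as well, had 9.35, 24.5 and 52.6 against 2.48, 18.1 and 36.8 CPM (0.78, SE 0.536), and control library 27, which had the least Slc17a7, was lowest.

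Growth factors and their receptors gave 5 of 14 tested members above 0 (median -0.09) and 0 calls. The median was -0.01 without stressed library 52 and also without control library 11, and -0.15 without control library 51. Bdnf, a neurotrophin that reaches the NAc mainly from cortical and midbrain neurons, had 1.59, 3.96 and 9.63 CPM in stressed and 0.697, 4.34 and 5.92 CPM in control mice (0.43, SE 0.541). Its extremes were stressed library 28 and control library 27, the libraries with the highest and the lowest Slc17a7, and without library 28 the value was 0.15. Ntf3 had 0.0161 to 0.780 CPM in stressed and 0.151 to 0.499 CPM in control mice (-0.10, SE 0.635). The receptor gene Ntrk3 had 51.4, 53.6 and 61.1 CPM in stressed and 53.4, 58.8 and 67.5 CPM in control mice (-0.11, SE 0.0782), with overlapping groups. Ntrk3 overlaps Gm9885 on the opposite strand.

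Genes that define the medium spiny neuron lay below 0 together, without a call. All 16 tested striatal signalling and transcription genes had negative log2 fold changes, from -0.32 to -0.09, where 51.2% of all genes lay above 0, and the median was -0.17 (-0.26 within cohort 1). None had an unadjusted p under 0.05. Ppp1r1b, which encodes the dopamine-regulated phosphatase inhibitor DARPP-32, had 543, 691 and 804 CPM in stressed and 640, 794 and 1074 CPM in control mice (-0.21, SE 0.145), and it overlaps 1700003D09Rik on the opposite strand. Gng7, a G-protein subunit that couples striatal receptors to adenylyl cyclase, had 666, 791 and 974 against 740, 937 and 1139 CPM (-0.21, SE 0.128). The groups of both genes overlapped. Rasd2, a striatal GTPase, had 177, 211 and 233 CPM in stressed and 222, 237 and 417 CPM in control mice (-0.32, SE 0.165, edgeR adjusted p = 1), and control library 3 held the 417 CPM. Without that library the value was -0.12 for Rasd2 and -0.09 for Ppp1r1b. Bcl11b, a transcription factor that medium spiny neurons need to mature, had 211, 227 and 273 against 228, 252 and 294 CPM (-0.13, SE 0.0862).

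Markers of both classes of medium spiny neuron had medians below 0. Of 10 tested D1 markers 2 lay above 0 (median -0.06, and 0.01 without libraries 12 and 28), and of 9 tested D2 markers 1 lay above 0 (median -0.10, and -0.02 without libraries 12 and 28), with 0 calls. Without control library 3 the medians were -0.02 for D1 and -0.05 for D2 markers, and the D1 median was -0.01 without control library 27 and -0.02 without stressed library 28. Drd1 had 169, 258 and 300 CPM in stressed and 227, 274 and 352 CPM in control mice (-0.12, SE 0.135). Tac1, the substance P precursor of D1 cells, had 146, 183 and 228 against 155, 188 and 232 CPM (-0.02, SE 0.198). The D1 markers of smallest p were transcription factors of opposite sign, Eya1 at 6.99, 8.93 and 12.8 against 6.86, 7.51 and 8.90 CPM (0.25, SE 0.135) and Ebf1 at 7.58, 11.2 and 13.2 against 10.4, 13 and 15.5 CPM (-0.23, SE 0.140). Drd2 had 60.6, 76.1 and 90.5 CPM in stressed and 74.5, 93.5 and 123 CPM in control mice (-0.25, SE 0.169). Adora2a, the adenosine receptor that opposes D2 in the same cells, had 88.7, 121 and 146 against 112, 146 and 186 CPM (-0.26, SE 0.164). Neither passed the test, and both intervals include 0.

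Listed markers of cortical and other excitatory neurons had a median on the other side of 0. Of 12 tested members 10 were above 0 (median 0.21, 0.24 within cohort 1), and 0 were called. Their summed level was 361, 662 and 1220 CPM (lowest, median, highest) in stressed mice and 228, 656 and 936 CPM in controls, and none of the 12 was at 0 in any library. Slc17a7 had 99.9, 280 and 644 CPM in stressed and 22.6, 279 and 407 CPM in control mice (0.44, SE 0.563), and Tbr1, a transcription factor of deep cortical layers, had 22.2, 46 and 101 against 3.79, 44.3 and 73.1 CPM (0.35, SE 0.523). The wide ranges come with near-equal medians, and leaving out 1 library moved the value from 0.11 (without stressed library 28) to 0.71 (without control library 11) for Slc17a7, and from 0.08 (without control library 27) to 0.61 (without control library 11) for Tbr1. Among members with narrower ranges, Rorb had 25.6, 29.2 and 32.6 CPM in stressed and 19.5, 23.4 and 31.1 CPM in control mice (0.22, SE 0.144). Cux2 had 20.6, 24.2 and 28.9 CPM in stressed and 16.8, 21.4 and 26.3 CPM in control mice (0.18, SE 0.159). Their lowest control values stayed near the control medians, unlike those of Slc17a7 and Tbr1. Which cells of the punches gave the RNA of Rorb and Cux2 was not tested.

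Some of the same libraries stood at the ends of both lists. A list score, the mean log2(CPM + 0.5) of the members in a library, was 8.38, 8.57 and 8.76 for striatal genes in stressed mice and 8.59, 8.72 and 9.09 in controls. Stressed library 28 had the lowest striatal score (8.38) and the highest excitatory score (5.39), and control libraries 3 and 27 had the highest striatal scores (9.09 and 8.83) and the lowest excitatory scores of the controls (4.16 and 2.87). Without stressed libraries 12 and 28 the striatal median was -0.07 and the excitatory median 0.07, both over 1.5 times closer to 0. Without stressed library 28 alone they were -0.10 and 0.11. Without control library 3 the striatal median was -0.08, and the excitatory median was 0.12 without control library 27, 0.33 without control library 51, 0.36 without stressed library 22 and 0.49 without control library 11. The part of excitatory-neuron RNA in the striatal values was not tested.

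**Figure D5:**
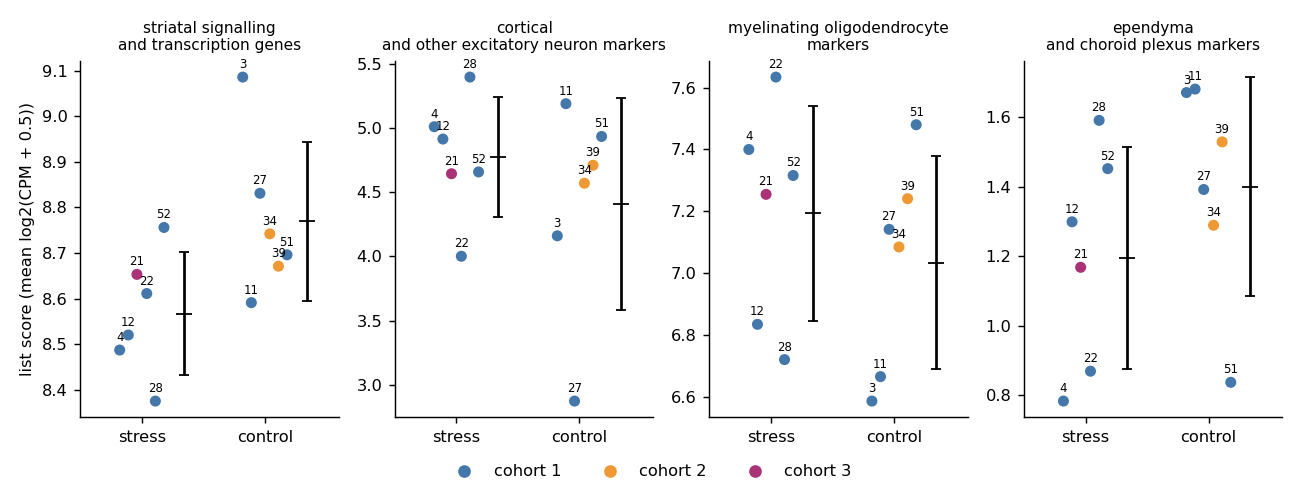
List scores, the mean log2(CPM + 0.5) of the members, in each XXSry NAc library for striatal signalling genes, excitatory neuron markers, myelinating oligodendrocyte markers and ependymal markers, stressed mice to the left of controls, numbered by replicate and coloured by cohort, with mean and 1 SD (n = 6 each). Library 28 has the lowest striatal score (8.38) and the highest excitatory score (5.39), and the groups overlap in all 4 panels.

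Receptors and peptides of striatal circuits gave no calls. Among opioid and neuropeptide genes 5 of 15 lay above 0 (median -0.01). Penk, the enkephalin precursor of D2 cells, had 732, 988 and 1199 CPM in stressed and 963, 1058 and 1329 CPM in control mice (-0.10, SE 0.136), and it overlaps A830012C17Rik on the opposite strand. Pdyn, the dynorphin precursor whose peptide acts on kappa receptors in aversion, had 143, 229 and 264 CPM in stressed and 179, 209 and 278 CPM in control mice (0.07, SE 0.174), and library 28 held the 143 CPM. The groups of both peptides overlapped. Tac2, the neurokinin B precursor, had 3.75, 6.72 and 9.30 against 5.61, 9.32 and 10.2 CPM (-0.37, SE 0.217), and Sst, the peptide of an interneuron class, had 120, 150 and 167 against 106, 127 and 159 CPM (0.17, SE 0.121).

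Glutamate receptor genes were among the most closely matched. Of 17 tested members 8 lay above 0, and 15 had an interval within a 1.5-fold change (median -0.03). Gria1, an AMPA receptor subunit, had 660, 688 and 717 CPM in stressed and 665, 703 and 731 CPM in control mice (-0.04, interval -0.11 to 0.04), and Gria2, the subunit that blocks calcium entry, had 1190, 1232 and 1304 against 1172, 1203 and 1322 CPM (0.02, interval -0.11 to 0.15). Both intervals are narrow. Grin3a, an NMDA receptor subunit, had 54.2, 59.8 and 93.6 against 42.2, 53.4 and 56.8 CPM (0.24, SE 0.147), with the highest value in library 28, and Grm8, a presynaptic metabotropic receptor, had 7.19, 8.21 and 15.9 against 7.99, 10.4 and 15.8 CPM (-0.31, SE 0.254).

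Cholinergic interneuron markers had 3 of 10 members above 0 (median -0.05). Chat, which makes acetylcholine, had 9.52, 11.7 and 14.9 CPM in stressed and 11.9, 12.9 and 17.6 CPM in control mice (-0.19, SE 0.157), and its vesicular transporter Slc18a3, which lies within the same locus, had 2.01, 2.41 and 4.09 against 2.16, 2.87 and 3.40 CPM (-0.12, SE 0.213). Neither differed beyond the spread. Gbx2, a homeobox gene, had 0.223, 0.756 and 1.75 against 0.169, 0.434 and 0.816 CPM (0.74, SE 0.442), and Ecel1, a membrane peptidase, had 19.6, 30.2 and 33.6 against 25.1, 33.1 and 42.5 CPM (-0.28, SE 0.212). Chat overlaps Gm2990 and Gbx2 overlaps D130058E05Rik on the opposite strand.

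Steroid receptors matter in a model with transgenic testes. Esr1, an estrogen receptor, had 3.06, 3.97 and 8.96 CPM in stressed and 2.77, 3.01 and 3.86 CPM in control mice (0.50, SE 0.249, edgeR adjusted p = 1), and library 28 held the 8.96 CPM. Without library 28 the value for Esr1 was 0.22. Greb1, a target of the estrogen receptor, had 0.177, 0.226 and 1.10 against 0.298, 0.757 and 1.26 CPM (-1, SE 0.450). Of 11 tested members of this list 7 lay above 0 (median 0.03) and 0 were called.

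Esr1 also marks the regions beside the NAc. Of 11 tested markers of septum, pallidum and bed nucleus 5 lay above 0 (median -0.08, and 0.03 within cohort 1). The median was -0.32 by limma-voom, -0.21 without libraries 12 and 28, -0.18 without stressed library 12 and -0.01 without stressed library 4. Their summed level was 152, 189 and 249 CPM in stressed and 155, 189 and 256 CPM in control mice, with none at 0 in any library. Zic4, a septal transcription factor, had 1.87, 4.74 and 14.3 against 5.38, 7.45 and 11 CPM (-0.15, SE 0.462), and the channel gene Trpc4 had 13.6, 17.6 and 40 against 18, 24.6 and 29.1 CPM (-0.17, SE 0.315). The stressed ranges of both were the wider ones. Gal, the galanin precursor, had 0.00948, 0.137 and 0.467 against 0.138, 0.418 and 0.776 CPM (-1.48, SE 0.658). At these low levels its value is uncertain, and it was -0.96 within cohort 1. Zic4 overlaps Zic1 on the opposite strand.

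Myelin genes lay above 0 together in both regions, without a call. All 13 tested markers of myelinating oligodendrocytes lay above 0, from 0.14 to 0.37, with a median of 0.23 in the NAc (0.22 within cohort 1) and 0.18 in the PFC of the same mice, where 13 of 13 also lay above 0, against 48.7% of all genes tested in the PFC. The list median over all other NAc settings ran from 0.12 to 0.33, and it was 0.42 without libraries 12 and 28. In the NAc of the other genotypes the list median was 0.0981 in XX and 0.235 in XY-Sry mice. The list score, which is not adjusted for cohort, had a median of 7.05 in stressed and 7.19 in control XX mice. In XY-Sry mice these medians were 7.19 and 7.11. In XXSry mice the mean score was 7.19 (SD 0.348) in stressed and 7.03 (SD 0.344) in control mice. Against XX and against XY-Sry mice, 0 of 13 differences of the effects had an unadjusted p under 0.05 by edgeR. Mbp, a major myelin protein, had 1382, 2124 and 2754 CPM in stressed and 1247, 2003 and 2204 CPM in control mice (0.24, SE 0.156). The groups overlapped over most of their ranges. Ermn, a cytoskeletal protein of late oligodendrocytes, had 79.4, 133 and 176 against 69.8, 106 and 154 CPM (0.37, SE 0.212, edgeR adjusted p = 1), and Mobp had 701, 1122 and 1402 against 659, 932 and 1265 CPM (0.32, SE 0.183). Mbp overlaps Rpl21-ps8 on the opposite strand. The summed level of the list was 4700, 7100 and 9010 CPM in stressed and 4140, 6360 and 7940 CPM in control mice.

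Precursors of these cells had 9 of 12 markers above 0 (median 0.06), and 11 intervals lay within a 1.5-fold change. Pdgfra, the growth factor receptor of precursors, had 64.1, 70.5 and 76.8 CPM in stressed and 64, 66.7 and 71.2 CPM in control mice (0.07, interval -0.06 to 0.20), and the proteoglycan gene Cspg4 had 14.2, 16.8 and 19.3 against 13.9, 17 and 19.6 CPM (0.02, interval -0.21 to 0.25). The smallest p-values in this list were those of Olig2, described above, and of Neu4, a sialidase, at 7.22, 7.93 and 9.30 against 6.58, 6.94 and 7.82 CPM (0.20, SE 0.0940, edgeR adjusted p = 1).

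Astrocytes and microglia were closely matched. Among 13 tested astrocyte markers 4 lay above 0 (median -0.04), and 11 intervals lay within a 1.5-fold change. Gfap, a filament that reactive astrocytes make more of, had 24.7, 30.9 and 44.9 CPM in stressed and 24.5, 29.9 and 34.4 CPM in control mice (0.20, SE 0.284), and Aqp4, the water channel of their endfeet, had 68, 74.1 and 81.3 against 71.1, 75.6 and 80 CPM (0.01, interval -0.20 to 0.22). Aldh1l1 was at 27.8, 30.2 and 38 against 29.6, 33.5 and 35.8 CPM (-0.13, SE 0.0874), and S100b at 59.4, 72.9 and 78.5 against 61.5, 66.9 and 77.3 CPM (0.12, SE 0.0803). S100b overlaps Dip2a on the opposite strand. In the PFC of these mice 0 of 14 microglia markers lay above 0 (median -0.15). In the NAc the microglia list is the one of these whose 14 tested members all had an interval within a 1.5-fold change, with 8 above 0 (median 0.03). This NAc median was -0.02 within cohort 1 and changed sign under 6 of 22 alternatives. In the NAc effect minus the PFC effect, 0 microglia markers had an unadjusted p under 0.05 by edgeR. Cx3cr1, the receptor for neuronal fractalkine, had 44.6, 51.4 and 54.6 CPM in stressed and 45.3, 52.9 and 56.1 CPM in control mice (0.03, interval -0.15 to 0.20), and P2ry12, the receptor by which resting microglia sense ADP, had 40, 44.3 and 52.7 against 37.8, 46.7 and 55.4 CPM (-0.01, interval -0.24 to 0.22). Both lie on the opposite strand of other measured genes. Trem2, at 7.11, 7.55 and 9.24 against 6.78, 7.78 and 8.66 CPM (0.13, SE 0.136), and the complement gene C1qb, at 19.5, 22 and 25.4 against 22.3, 25.4 and 28.8 CPM (-0.10, SE 0.161), had the smallest p-values of the list.

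Vascular, ependymal and blood genes gave 0 calls too. Of 14 endothelial and mural markers 2 lay above 0 (median -0.05), and 12 intervals lay within a 1.5-fold change. Cldn5, a tight-junction protein that stress studies of the NAc often measure, had 9.58, 10.8 and 12.2 CPM in stressed and 9.77, 11.6 and 14.3 CPM in control mice (-0.13, interval -0.36 to 0.10), and Pecam1 had 14.2, 16 and 18.4 against 16.4, 16.6 and 17 CPM (-0.04, interval -0.17 to 0.09). The smallest p was that of Tek, the angiopoietin receptor, at 11, 12.8 and 14.8 CPM in stressed and 13.4, 14.3 and 16.6 CPM in control mice (-0.17, SE 0.0786, edgeR adjusted p = 1). Ly6c1 had 11.3, 15.6 and 19.8 against 11.3, 13.8 and 16.1 CPM (0.20, SE 0.108).

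The summed level of ependymal and choroid plexus markers was 36, 47.3 and 75.1 CPM in stressed and 34.8, 55.2 and 63.5 CPM in control mice, with Tmem212 and Folr1 at 0 in at least 1 library. Of 12 tested members 5 lay above 0 with a median of -0.21, and it was -0.70 without libraries 12 and 28. Ttr, the main transcript of the choroid plexus, had 28.7 CPM in stressed library 52 and 0.133 to 1.30 CPM in the other stressed mice, against 0.153 to 2.86 CPM in controls, so its edgeR log2 fold change of 2.44 (SE 1.16) rests on 1 library. Without library 52 it was -0.59, and by limma-voom -0.21. Foxj1, the regulator of motile cilia, had 2.88, 3.81 and 8.93 against 3.61, 5.03 and 8.82 CPM (-0.30, SE 0.419), with library 28 highest among the stressed, and Rsph1, a cilia protein, had 2.80, 3.45 and 4.99 against 2.60, 4.95 and 6.92 CPM (-0.47, SE 0.322). Blood cell markers had 5 of 10 above 0 (median 0.01), a summed level of 102, 122 and 155 CPM in stressed and 122, 138 and 153 CPM in control mice, and S100a8 and S100a9 at 0 in at least 1 library. The median was -0.27 without stressed library 12.

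Interferon-response genes, which antiviral signalling switches on, had 17 of 22 members above 0 with a median of 0.21 but 0 calls, and within cohort 1 the median was 0.04. Their list score was 1.30, 1.42 and 1.47 in stressed and 1.31, 1.37 and 1.48 in control mice, which is nearly the same range. Isg15, a ubiquitin-like antiviral protein, had 0.467, 0.528 and 0.694 CPM in stressed and 0.276, 0.526 and 0.796 CPM in control mice (0.34, SE 0.528), and Ifit1, which binds foreign RNA, had 1.61, 1.91 and 2.48 against 1.44, 1.70 and 2.65 CPM (0.15, SE 0.548). The list median was 0.01 in the XXSry libraries alone with a cohort term, 0.06 in them without it, and 0.07 in all 48 NAc libraries without a cohort term. Leaving out 1 library moved it to 0.10 without stressed library 12 and to 0.29 without control library 11, and the cause was not tested. Mx1 had 0.133, 0.249 and 0.322 against 0.0726, 0.137 and 0.244 CPM (0.88, SE 0.659), and Ifi27 had 16.4, 17.5 and 20.6 against 13.8, 15.6 and 18.3 CPM (0.25, SE 0.202).

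Class I antigen presentation genes had 12 of 13 members above 0 (median 0.17, 0.07 within cohort 1) and 0 calls. B2m, the light chain of class I molecules, had 47.7, 51.5 and 55.6 CPM in stressed and 44.2, 50.2 and 56.6 CPM in control mice (0.10, SE 0.242), and H2-K1, a heavy chain, had 9.34, 10.4 and 11 against 9.20, 10.3 and 11.5 CPM (0.04, SE 0.263). Their groups overlapped fully. Nlrc5, the activator of this gene class, had 0.607, 0.927 and 1.13 against 0.290, 0.687 and 0.803 CPM (0.72, SE 0.440), and H2-Q7 had 0 to 0.444 against 0 to 0.186 CPM. The class I genes share sequence with each other, so their values are uncertain, and Nlrc5 overlaps 9330175E14Rik on the opposite strand.

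Cholesterol synthesis genes had 15 of 18 members above 0 (median 0.05 in the NAc and 0.06 in the PFC), and all 18 intervals lay within a 1.5-fold change. Hmgcs1, an early enzyme of the pathway, had 175, 224 and 242 CPM in stressed and 156, 203 and 232 CPM in control mice (0.11, interval -0.14 to 0.35). Fdps, at 3.61, 4.36 and 6.33 against 3.01, 3.68 and 4.97 CPM (0.23, SE 0.134), and Lss, at 48, 53.7 and 56.9 against 48.1, 49.8 and 52.4 CPM (0.08, SE 0.0539), had the smallest p-values. Without libraries 12 and 28 the median was -0.01.

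Of 12 long noncoding and paraspeckle genes 11 lay above 0 (median 0.05). Neat1, the RNA that builds nuclear paraspeckles, had 67.7, 75.7 and 96.2 CPM in stressed and 46.2, 62.2 and 77.8 CPM in control mice (0.43, SE 0.159, edgeR adjusted p = 1). Its groups overlapped, and the value was 0.31 within cohort 1. The log2 fold change of Neat1 was 0.42 (SE 0.171) in XX and 0.44 (SE 0.166) in XY-Sry mice, and the PFC of XXSry mice had 0.19 (SE 0.125). Malat1 had 928, 1062 and 1505 against 852, 1013 and 1238 CPM (0.10, SE 0.113), and Miat had 134, 173 and 390 against 124, 145 and 244 CPM (0.34, SE 0.247, and 0.03 without stressed library 28, which held the 390 CPM). Malat1 overlaps Gm37376 on the opposite strand.

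Genes encoded by mitochondrial DNA, which supply subunits of the respiratory chain, had 9 of 13 members above 0 (median 0.02) and 0 calls. Most were abundant and overlapped: mt-Nd1 had 7498, 11590 and 11930 CPM in stressed and 8170, 10190 and 13280 CPM in control mice (0.02, SE 0.133), and mt-Nd2 had 5341, 7887 and 9083 against 6504, 6913 and 9534 CPM (0.05, SE 0.131). A member with few counts, mt-Nd3 (mitochondrial positions 9459 to 9806), was either near 10 or below 1 CPM. It had 11.9, 11.2 and 8.58 CPM in stressed libraries 4, 12 and 21, and 0.492, 0.338 and 0.136 CPM in stressed libraries 22, 52 and 28, against 0.224 to 0.475 CPM in the 6 controls. The PFC libraries of the same stressed mice gave 11.3, 11.8 and 12.9 CPM for mice 4, 12 and 21 and 0.107 to 0.125 CPM for mice 22, 28 and 52, against 0.171 to 0.316 CPM in controls. The level was thus high or low by library number in both regions. The log2 fold changes of 3.35 (SE 1.32) in the NAc and 4.13 (SE 1.65) in the PFC did not pass (edgeR adjusted p = 1 and 0.805). In the NAc of the other genotypes, levels above 5 CPM occurred in 4 of 6 stressed and 1 of 5 control XX mice, in 3 of 6 stressed and 0 of 7 control XY- mice, and in 2 of 6 stressed and 1 of 6 control XY-Sry mice. Another member with few counts, mt-Co3, had 2.61, 5.87 and 16.3 CPM in stressed and 3.50, 4.21 and 6.77 CPM in control mice (0.57, SE 0.379). Whether the counts of mt-Nd3 and mt-Co3 follow the level of their RNA was not tested, so their values are uncertain.

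The stress effect of XXSry mice was also set against those of the other genotypes. Against XX mice, edgeR called 0 of 19684 genes in the difference of the effects, and 368 (1.87%) had an unadjusted p under 0.05. The named genes of smallest p were Bcl7b, a subunit of a chromatin remodeller, and mt-Atp8, a subunit of ATP synthase. Bcl7b had log2 fold changes of 0.08 (SE 0.0544) in XXSry and -0.17 (SE 0.0583) in XX mice, a difference of 0.24 (SE 0.0781, edgeR adjusted p = 1). For mt-Atp8 the values were 0.53 (SE 0.719) and -2.93 (SE 0.866), a difference of 3.46 (SE 1.07). Whether the counts of mt-Atp8 follow the level of its RNA was not tested.

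Against XY-Sry mice, which have testes as well, 0 genes were called and 1011 (5.14%) had an unadjusted p under 0.05, and the smallest adjusted p was 0.966. Within cohort 1 the count was 550 (2.78%), while the difference from XX mice then had 905 (4.57%), so the order of the 2 counts turned round. The XY-Sry mice of cohorts 1, 2 and 3 numbered 2, 1 and 3 stressed and 1, 4 and 1 control, and the XX mice 2, 1 and 3 stressed and 3, 2 and 0 control, so stress and cohort cannot be fully told apart in them. Tmem163, a zinc transporter, had 6.75, 9.76 and 11.5 CPM in stressed and 5.34, 7.48 and 9.57 CPM in control XXSry mice (0.32, SE 0.145), and -0.58 (SE 0.150) in XY-Sry mice, a difference of 0.90 (SE 0.201, edgeR adjusted p = 0.966). It overlaps Mgat5 on the opposite strand. Ltbp1, which anchors latent TGF-beta in the matrix, had 0.23 (SE 0.121) in XXSry and -0.46 (SE 0.125) in XY-Sry mice, a difference of 0.69 (SE 0.168). The striatal signalling genes were on 1 side here too, in a comparison that uses the same XXSry libraries. Of their differences 16 of 16 lay below 0 with a median of -0.48, where the median over all genes was -0.00288. Of the 16, 12 had an unadjusted p under 0.05, though 0 were called. Behind these differences lay list medians of -0.17 in XXSry and 0.28 in XY-Sry mice. The striatal list score had a median of 8.57 in stressed and 8.72 in control XXSry mice, and of 8.73 in stressed and 8.45 in control XY-Sry mice. Excitatory neuron markers ran the other way, with 11 of 12 differences above 0 and a median of 0.70. Their score was 4.79 in stressed and 4.64 in control XXSry mice, and 4.60 in stressed and 5.25 in control XY-Sry mice. The part of excitatory-neuron RNA in the striatal difference was not tested. All 18 cholesterol synthesis genes had differences above 0 (median 0.24, 8 with an unadjusted p under 0.05), and so had all 22 interferon-response genes (median 0.73, 1 with an unadjusted p under 0.05), with 0 calls. The list medians behind them were 0.05 in XXSry and -0.22 in XY-Sry mice for cholesterol synthesis, and 0.21 in XXSry and -0.46 in XY-Sry mice for the interferon response. The interferon score of the XY-Sry mice had a median of 1.58 and a highest value of 1.95 in stressed mice, and a median of 1.72 and a highest value of 3.64 in control mice, and the part of that control library in the difference was not tested. In the difference from XX mice the medians were -0.18 for striatal, 0.36 for excitatory, 0.07 for cholesterol and 0.335 for interferon genes. In that difference 0 members of these lists had an unadjusted p under 0.05 by edgeR.

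In the PFC of the same XXSry mice, edgeR called 0 of 19292 genes, and 1119 (5.8%) had an unadjusted p under 0.05. The NAc effect minus the PFC effect, fitted over both regions, gave 0 calls among 19918 genes and 520 (2.61%) with an unadjusted p under 0.05. With the animal as a replicate block these were 0 and 563. Arpin, an inhibitor of actin branching, had -0.13 (SE 0.0650) in the NAc and 0.16 (SE 0.0501) in the PFC, a difference of -0.29 (SE 0.0793, edgeR adjusted p = 1). Xpnpep3, an aminopeptidase of mitochondria, had -0.15 (SE 0.0580) in the NAc and 0.07 (SE 0.0424) in the PFC, a difference of -0.23 (SE 0.0686). Across 14061 genes with a level of at least 0 log2 CPM, the NAc and PFC log2 fold changes had the same sign for 56.7% (Pearson's r of 0.212), a description over genes of the same animals, which are not independent replicates.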

How the data were processed

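Bulk RNA was measured by poly(A) RNA sequencing of tissue punches. The deposited values are raw counts per gene and library. The build was GRCm38/mm10, and the tools listed, without their roles, were HISAT2 2.2.0, Trimmomatic 0.38, FastQC 0.11.9, DESeq2 and edgeR, per the submitters' processing notes. Which counter, annotation and strand setting made the counts is not given in the sources used here, so genes that overlap on opposite strands are named as uncertain. Per the labels' protocols, libraries were made from 100 ng RNA with 15 amplification cycles and read as pairs of 50 bp.

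Counts were tested with edgeR 4.0.16 in R 4.3.3 (TMM scaling, filterByExpr, robust quasi-likelihood) over all 48 NAc libraries, with 8 group means and the cohort as terms and Benjamini-Hochberg adjustment over all tested genes at 0.05. Samples were grouped by their genotype, treatment and tissue labels. NAc minus PFC effects came from a fit over all 96 libraries with 16 groups and cohort within region. Each edgeR SE is the size of the log2 fold change divided by the square root of the quasi-likelihood F. Intervals are 95% intervals of the log2 fold change, built symmetrically from this SE with the t distribution. CPM values are scaled by TMM, except those of Xist and the Y-linked genes, which are counts over the library total. Alternatives were DESeq2 1.42.0, limma-voom (limma 3.58.1), other scaling and filters, other samples and cohort terms, and leaving out each library.

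Named genes are the 8 of smallest p in each direction (level 0 log2 CPM or more, predicted-gene symbols left out), for each described list its first 2 members and the 2 of smallest p, and the 2 of smallest p in each difference. Some genes that this rule names are not reported here. Genes whose groups do not overlap, other list members and a few whose values are beside these were chosen after their values were seen. The comparison and the gene lists were chosen with earlier results of these data known. The lists of neighbouring regions, steroid receptors and long noncoding RNAs were added to the description after their values were seen. Coordinates and biotypes are from GENCODE M21 (GRCm38). All 30 pairs of libraries within a group differed by more than sampling noise. Whether replicates differ by litter or cage is not given, so the independence of the mice that the p-values assume could not be checked. The NAc p-values of the main fit rest on a spread estimated within the groups of all 48 NAc libraries, not within XXSry mice alone.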

Additional observations from a re-analysis of the deposited data

Results flagged for a closer look

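Of 268 sets of 6 values (genes, list scores and total counts), 21 held a sample far from the other 5 by Dixon's test (CPM on the log2 scale), which chance gives in about 1 in 20 sets. Stressed library 28 stood apart for Pdyn (143 CPM, others 217 to 264), Grin3a (93.6 CPM, others 54.2 to 61), Miat (390 CPM, others 134 to 191), Ltbp1 (7.45 CPM, others 4.55 to 5.45), the opioid and neuropeptide score (5.2, others 5.34 to 5.41) and the mitochondrial score (6.7, others 7.45 to 7.80). Stressed library 4 was the highest for Sgk1 (81.9 CPM, others 50.1 to 60.2), Malat1 (1510 CPM, others 929 to 1080), Lcn2 (0.569 CPM, others 0 to 0.0222) and the glucocorticoid-induced score (4.14, others 3.83 to 3.93). Stressed library 12 was the highest for Hba-a1 (14.5 CPM, others 7.97 to 9.35), Aldh1l1 (38 CPM, others 27.8 to 30.9) and the stress-axis score (4.6, others 4.04 to 4.16). Stressed library 52 was the highest for Ttr (28.7 CPM, others 0.133 to 1.30) and BC025920 (8.23 CPM, others 6.55 to 7).

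Among controls, library 3 was the highest for Rasd2 (417 CPM, others 222 to 276) and Chat (17.6 CPM, others 12 to 13.4), library 51 for Pecam1 (17 CPM, others 16.4 to 16.6) and mt-Nd2 (9530 CPM, others 6500 to 7420), library 27 for Hba-a2 (6.39 CPM, others 4.77 to 5.30), and library 39 for H2-Q7 (0.186 CPM, others 0 to 0.0613).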

How the results depend on the processing

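The count of called genes was 0 in all 22 alternatives of stress against control in the XXSry NAc (311 to 778 genes with an unadjusted p under 0.05, smallest adjusted p 0.214), in all 20 of the difference from XX mice (232 to 905), all 20 of the difference from XY-Sry mice (550 to 1279), all 9 in the PFC (745 to 1185) and all 3 of NAc minus PFC (520 to 586). With the animal as a replicate block, NAc minus PFC gave 0 calls and 563 genes with an unadjusted p under 0.05. Same-numbered libraries of the 2 regions correlated weakly in their deviations (r from -0.191 to 0.318 over 12 animals, 6 above 0.1, and 2 best with their own number), so the block rests on the labels. For mt-Nd3 the stressed libraries with high values had the same numbers, 4, 12 and 21, in both regions.

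Of 2321 alternative values for 108 gene results, 74 changed sign, in 24 genes, and 0 genes passed the threshold. The cause was not tested. The log2 fold changes that changed sign were Nr3c1 0.0121, Pdyn -0.00797, Ifit1 -0.173, B2m -0.0114, H2-K1 -0.0152, mt-Nd1 -0.0198 and mt-Nd2 -0.00139 in cohort 1 alone, and Nr3c1 0.0115, Pdyn -0.00945, Ifit1 -0.167, B2m -0.0119, H2-K1 -0.0161, mt-Nd1 -0.0201 and mt-Nd2 -0.00177 in the XXSry libraries with cohort. They were Sgk1 -0.0589, Aqp4 -0.0248, Cx3cr1 -0.0191 and H2-K1 -0.003 without a cohort term, and Sgk1 -0.0578, Aqp4 -0.0241, Cx3cr1 -0.0179 and H2-K1 -0.002 in the XXSry libraries without cohort. By limma-voom they were Fos 0.0605 and Ttr -0.215. Without stressed libraries 12 and 28, a choice made after seeing the data, they were Oxtr -0.0063, Fos 0.0879, Fosb 0.0118, Drd1 0.00768, Tac1 0.0748, Penk 0.0134, Aqp4 -0.000935, P2ry12 0.056 and Pecam1 0.0389.

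Leaving out each library in turn gave ranges across 0 for Aqp4 (-0.0167 to 0.0353), Cspg4 (-0.0391 to 0.0643), Cx3cr1 (-0.00353 to 0.0653), Fos (-0.181 to 0.306), Fosb (-0.12 to 0.0217), H2-K1 (-0.00456 to 0.0908), Lcn2 (-1.69 to 2.71), Malat1 (-0.0121 to 0.166), mt-Nd1 (-0.025 to 0.108), mt-Nd2 (-0.00551 to 0.147), Nr3c1 (-0.0554 to 0.0207), Ntf3 (-0.689 to 0.153), P2ry12 (-0.0711 to 0.0498), Sgk1 (-0.0753 to 0.097), Tac1 (-0.0867 to 0.0462), Ttr (-0.593 to 2.75) and Zic4 (-0.5 to 0.0526). Of 550 alternative list medians 13 moved by over 1 SD. Genes under 0 log2 CPM had the widest standard errors.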
